A study of Arabidopsis thaliana with 2 samples.

Results

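Arabidopsis carries a family of berberine bridge enzyme-like oxidases, and 10 of its genes lie in a pair of tandem clusters, 6 on chromosome 1 (AT1G30700, AT1G30710, AT1G30720, AT1G30730, AT1G30740 and AT1G30760) and 4 on chromosome 4 (AT4G20820, AT4G20830, AT4G20840 and AT4G20860). These genes were taken by locus and matched to the probe sets of the Affymetrix ATH1 array, each probe set being a group of short oligonucleotides directed at a transcript. All 10, of 14265 genes that the annotation ties to a probe set, were covered, by 9 probe sets out of 22746 that are not controls, because AT1G30720 shares its only probe set with AT1G30730, and AT4G20840 shares its only one with AT4G20830. AT4G20830 is also read by a probe set of its own. The genes were chosen with their ratios on these arrays known: the high ratio of AT1G30700 had drawn attention to the family. All ratios of the members are therefore given as descriptions.

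The arrays compared whole seedlings, 2 weeks old, of wild-type Columbia-0 and of the transgenic line OE-N6, made in the Columbia-0 background to overexpress AT4G16790, named NHRGP in the labels. Both were grown at 22 °C, in days of 16 h light and 8 h dark, and the diluted Murashige and Skoog medium held 2% sucrose. The sources used here do not give the promoter of the transgene, the number of plants pooled or any other overexpressing line, so OE-N6 stands for a single line. Each genotype was measured on 1 array. There is no replicate error, no test was possible, and a value called higher or lower is so on these arrays only.

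The family takes its name from the berberine bridge enzyme of alkaloid-producing plants. Its members are largely secreted flavoproteins that carry a bound FAD and pass electrons from a substrate to oxygen, in many cases with release of hydrogen peroxide. In Arabidopsis, members that have been studied biochemically oxidise fragments of the cell wall or lignin precursors. Oxidised pectin and cellulose fragments are weaker elicitors of immunity and poorer food for microbes, and many genes of the family are known to respond to pathogens and wounding.

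The overexpressed gene differed between the arrays in the labelled direction. AT4G16790 gave 91.1 signal units in the wild type against 5171 in OE-N6, at least 46.4-fold higher. "At least" is used because the wild-type signal lay under a floor of 111 signal units, the 40th percentile of all values. A signal under this floor was raised to it before a ratio was taken, and a probe set under it on both arrays has no ratio. Probe sets were counted as measured when their mean over both arrays reached 192 signal units, the median of all non-control probe sets, which left 11373. Their log2 ratios of OE-N6 over wild type had a median of -0.02 and an SD of 0.31 over probe sets, which is a spread over transcripts and not an error. RNA of shoot and root was present on both arrays. The 4 green tissue probe sets of a list of 6 loci summed to 47694 signal units in the wild type against 48983 in OE-N6, with PSAN, a photosystem I subunit, at a log2 ratio of 0.16 and LHCB4.2, a light-harvesting protein, at -0.18. The 4 root marker probe sets whose genes were all on a list of 7 loci summed to 16983 and 17853, of which PYK10, a beta-glucosidase of roots, alone gave 15970 and 16513.

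Of the 9 member probe sets 5 were measured and the other 4 were under the floor on both arrays. Among the measured ones 1, that of AT1G30700, was at least 1.5-fold higher in OE-N6, and it also passed 2-fold. None was 1.5-fold lower. Over all measured probe sets, 2.5% were at least 1.5-fold higher, and 2.57% were lower by the same factor. At 2-fold these shares were 0.51% (higher) and 0.484% (lower). At a lower threshold, a log2 ratio of 0.32, 2 of the 5 measured member probe sets were higher, as were 10.4% of all measured probe sets. They were the probe set of AT1G30700 and that shared by AT1G30720 and AT1G30730. All 5 measured member probe sets had a log2 ratio above 0, with a median of 0.30, and 46.6% of all measured probe sets were above 0. AT1G30700 was among the values that prompted the choice. The probe set of AT1G30720 and AT1G30730 passed the filter only through its OE-N6 signal. Nothing is therefore read from these shares or from the median.

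AT1G30700, the first gene of the chromosome 1 cluster, read 306 signal units on the wild-type array and 783 on the OE-N6 array. The OE-N6 signal was 2.56-fold higher, a log2 ratio of 1.36 and a difference of 477 signal units. Only 0.193% of measured probe sets had a higher ratio, which placed AT1G30700 at rank 23 of 11373. With measured probe sets put into 10 groups by mean signal, the SD of the log2 ratio over probe sets was 0.36 in the dimmest group and 0.24 in the brightest, so its place among probe sets of similar brightness is given too. Its group held 1138 probe sets with an SD of 0.31, among which it ranked 3.

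AT1G30720 and AT1G30730, the neighbouring pair read by a shared probe set, read 185 on the wild-type array and 252 on the OE-N6 array. This is 1.36-fold higher, a log2 ratio of 0.44. The probe set cannot tell the transcripts of the pair apart. Its mean signal of 219 lay just above the filter, in the dimmest of the 10 groups, where the SD over probe sets was 0.36 and it ranked 98 of 1138. Over all measured probe sets 5.14% had a higher ratio.

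The other 3 probe sets of the chromosome 1 cluster were under the floor on both arrays. AT1G30710 had signals of 28.4 (wild type) and 4.46 (OE-N6), and AT1G30740 had 1.68 and 1.59. AT1G30760, known to oxidise monolignols, the alcohols from which lignin is built, had 44.2 and 84.7. For these 3 genes only an upper bound of 111 signal units can be given for each array. Less RNA per cell and fewer cells that make the transcript cannot be told apart in whole seedlings, for these genes and for every ratio given here.

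**Figure D1:**
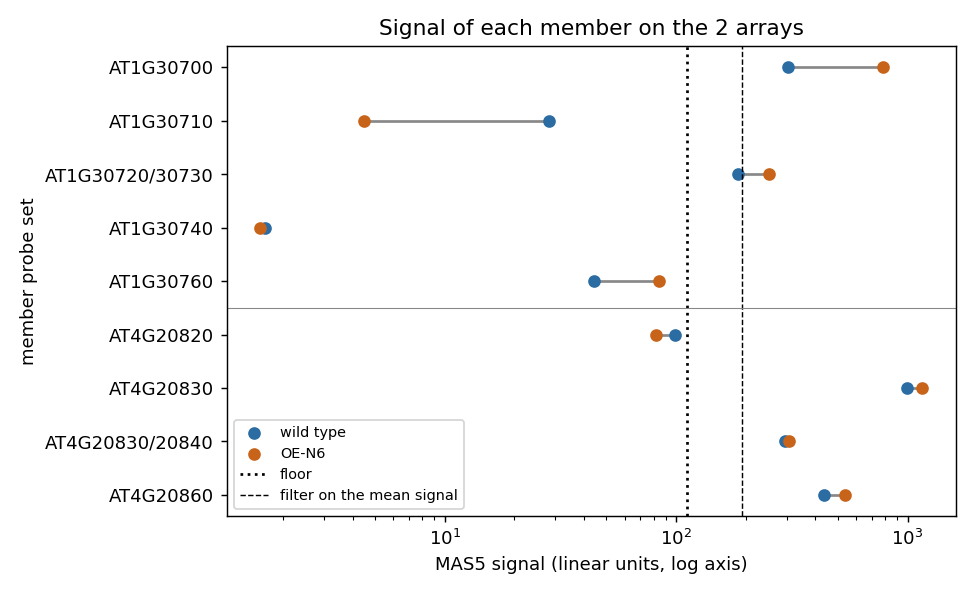
Signal of the 9 member probe sets on the wild-type array (blue) and the OE-N6 array (orange), in MAS5 signal units on a log axis, with the chromosome 1 cluster above the horizontal line and the chromosome 4 cluster below it. The dotted line is the floor of 111 units and the dashed line the filter of 192 units on the mean; AT1G30700 goes from 306 to 783, and 4 probe sets lie left of the floor on both arrays.

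The chromosome 4 cluster had small ratios. AT4G20860, known to oxidise cellulose-derived oligosaccharides, gave 435 signal units in the wild type against 537 in OE-N6, which is 1.23-fold higher. Its log2 ratio of 0.30 was the highest of this cluster, and 11.4% of measured probe sets had a higher one. AT4G20860 lay in the same signal group as AT1G30700, where it ranked 125.

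AT4G20830, known to oxidise oligogalacturonides, the pectin fragments released when cell walls are degraded, gave 994 signal units in the wild type against 1159 in OE-N6 on its own probe set. The log2 ratio was 0.22, a 1.17-fold higher signal in OE-N6. The probe set that AT4G20830 shares with AT4G20840, a gene for a further oligogalacturonide oxidase, had nearly equal signals of 295 and 307 and a log2 ratio of 0.05. Of all measured probe sets 17.7% had a higher ratio than the former and 37.6% a higher ratio than the latter. AT4G20820 had signals of 99.2 and 82.2, under the floor on both arrays.

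**Figure D2:**
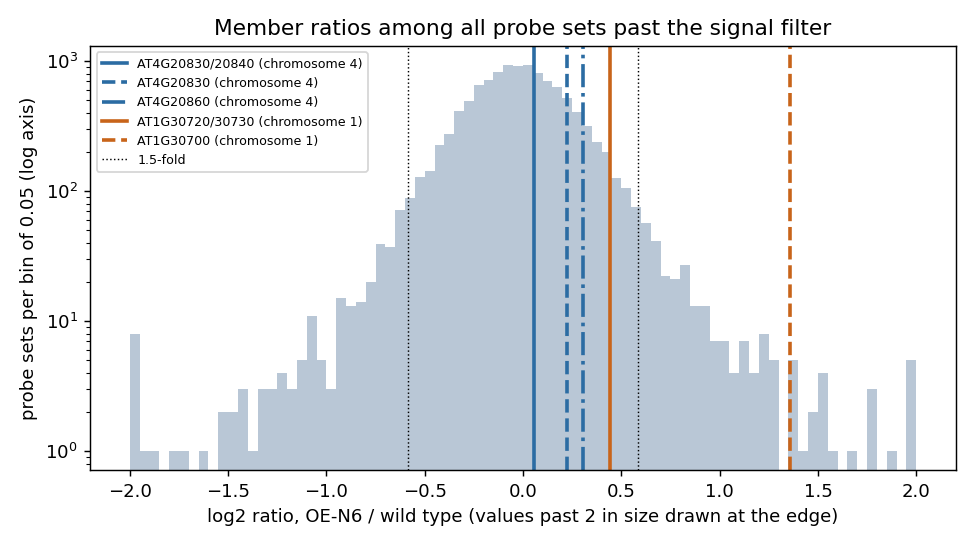
Number of measured probe sets (log axis) by log2 ratio of OE-N6 over wild type, in bins of 0.05, with values past 2 in size drawn at the edges. Lines mark the 5 measured member probe sets; AT1G30700 at 1.36 lies in the sparse right tail, and the 3 chromosome 4 probe sets lie between 0.05 and 0.30.

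The ratios were compared within and between the clusters. The measured probe sets of the chromosome 1 cluster had log2 ratios of 0.44 and 1.36, a difference of 0.91 and a median of 0.90. Those of the chromosome 4 cluster ran from 0.05 to 0.30, a range of 0.25 around a median of 0.22. Both chromosome 1 values were above all 3 chromosome 4 values, but with 2 and 3 probe sets, chosen with the ratios known, this order was not tested. The lower chromosome 1 value came from the probe set that passed the filter only through its OE-N6 signal.

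A yardstick for such differences is the agreement of different probe sets for the same gene. Over 41 genes with more than 1 measured probe set, the log2 ratios of the 2 brightest differed by a median of 0.19 and by at most 0.73. The probe sets that read AT4G20830, alone and together with AT4G20840, differed by 0.17. AT1G30700 lay 0.91 above AT1G30720 and AT1G30730 and 1.05 to 1.30 above the chromosome 4 probe sets; since its high ratio prompted the choice of the family, these gaps are not set against the yardstick. The probe set of AT1G30720 and AT1G30730 differed from those of chromosome 4 by 0.14 to 0.39. These gaps lay on both sides of the median of 0.19 and under the largest value of 0.73. They too come from genes chosen with the ratios known, so nothing is concluded from them. This yardstick covers differences between probe sets on the same arrays and not the variation between plants.

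The neighbours of the clusters were read from the gene order of the RefSeq table of assembly TAIR10.1. From its first to its last member the chromosome 1 cluster spans 9 loci, of which 3 are not members (AT1G30750, AT1G30755 and AT1G30757). Of these 3, AT1G30750 has a probe set named as its own. AT1G30750, which lies between AT1G30740 and AT1G30760 and has no symbol in the table, read 180 on the wild-type array and 304 on the OE-N6 array. This is 1.69-fold higher, a log2 ratio of 0.75, and so past 1.5-fold while the members on either side of it were under the floor. AT1G30750 passed the filter only through its OE-N6 signal, so nothing is read from its passing 1.5-fold.

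Of the 3 nearest probe sets on each side of the chromosome 1 cluster, only AT1G30690, next to AT1G30700, was measured. Its signals were 363 and 428, a log2 ratio of 0.24. AT1G30640 had signals of 122 and 139, a log2 ratio of 0.19, and did not reach the filter. AT1G30660, AT1G30780, AT1G30790 and AT1G30795 were under the floor on both arrays, between 2.23 and 56.2 signal units.

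The chromosome 4 cluster spans 6 loci, of which AT4G20835 and AT4G20850 are not members. AT4G20850, which encodes the peptidase TPP2, lies between AT4G20840 and AT4G20860 and had signals of 2205 and 2047, a log2 ratio of -0.11. Outside the cluster CML42, a calmodulin-like protein gene, had a log2 ratio of 0.06, AT4G20880 one of -0.18, TUB9, a beta-tubulin gene, one of 0.25, and AT4G20930 one of 0.26. AT4G20790 was under the floor with 21.9 and 0.32. AT4G20800, a further gene of the oxidase family that lies 2 loci before AT4G20820 and was not among the 10, was under the floor with 3.33 and 33.9. The 3 measured member probe sets of this cluster, from 0.05 to 0.30, overlapped its 5 measured neighbours, from -0.18 to 0.26. The highest neighbour, AT4G20930, passed the filter only through its OE-N6 signal.

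**Figure D3:**
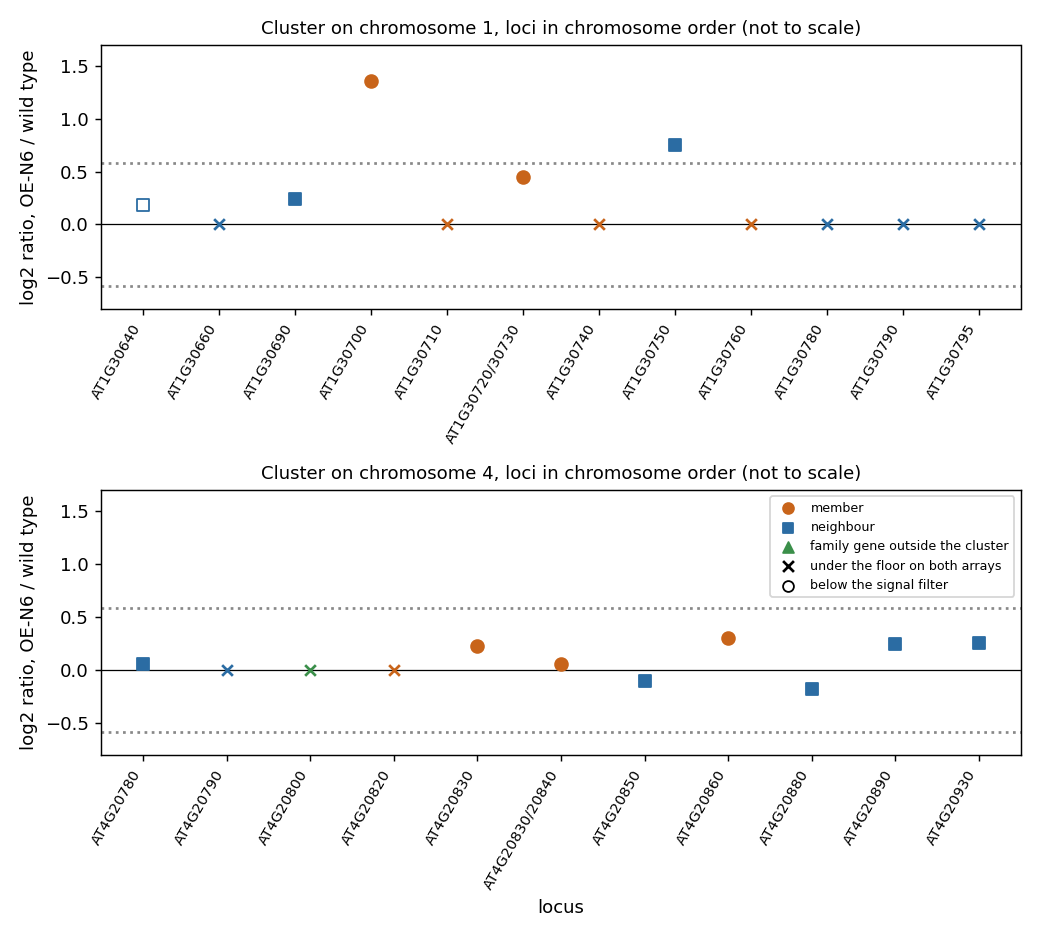
Log2 ratio of OE-N6 over wild type for members (orange circles), neighbours (blue squares) and the family gene AT4G20800 (green), with loci in chromosome order and not to scale. Open symbols are below the signal filter, crosses at 0 mark probe sets under the floor on both arrays, which have no ratio, and dotted lines mark 1.5-fold. AT1G30700 (1.36) and AT1G30750 (0.75) lie above the upper line. AT1G30750 passed the filter only through its OE-N6 signal.

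The rest of the family was not uniform. A list of 17 further berberine bridge enzyme-like loci was drawn up, and 15 had a probe set named as their own. Of these 4 were measured, with 2 above 0, 2 below 0 and a median log2 ratio of 0.00. The median over all measured probe sets was -0.02. That of the clustered members was 0.30, but these were chosen with their ratios known, so the medians were not compared. On chromosome 5, AT5G44380 had signals of 706 and 1127, which is 1.60-fold higher, a log2 ratio of 0.67. AT5G44410 had signals of 195 and 264, a log2 ratio of 0.44. AT5G44400, which lies in the same chromosome 5 group, was lower in OE-N6, with signals of 1220 and 907 and a log2 ratio of -0.43. AT5G44360, AT5G44390 and AT5G44440 were under the floor on both arrays, between 14.6 and 66.0 signal units. The 3 measured genes of this group thus spanned 1.10 on the log2 scale. The range was 0.91 in the chromosome 1 cluster and 0.25 in the chromosome 4 cluster. The former is the gap between 2 probe sets and rests on AT1G30700. The latter includes more than 1 probe set that reads AT4G20830, so the ranges were not compared.

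AT2G34810 had the lowest ratio of the family. Its signal went from 496 in the wild type to 301 in OE-N6, 1.65-fold lower, a log2 ratio of -0.72. None of the 5 loci from AT1G26380 to AT1G26420, a further tandem group on chromosome 1, reached the filter. AT1G26380, whose product acts in the synthesis of an indole defence compound, had signals of 147 and 175, a log2 ratio of 0.25. AT1G26390 had 121 and 113, a log2 ratio of -0.10, and AT1G26400, AT1G26410 and AT1G26420 were under the floor on both arrays. So were AT1G11770, with 30.6 and 4.48, and AT1G34575, with 1.82 and 3.76. AT1G01980 and AT2G34790 had no probe set named as theirs and were not analysed here.

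**Figure D4:**
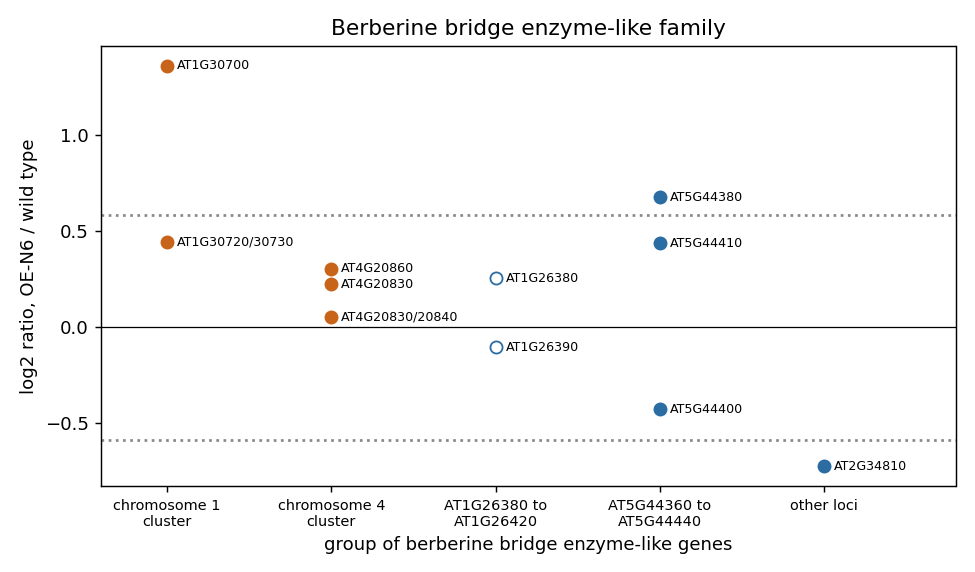
Log2 ratio of OE-N6 over wild type for each probe set of the family that was above the floor, by group, with the 10 clustered genes in orange and other family genes in blue. Filled circles passed the signal filter, open circles did not, and dotted lines mark 1.5-fold; AT1G30700 (1.36) and AT5G44380 (0.67) lie above the upper line and AT2G34810 (-0.72) below the lower one.

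Genes of the processes in which these oxidases are known to act could be followed only in small part. Many probe sets are unnamed in the annotation used here (8730 of 22746), so a locus without a named probe set was not analysed here, which says nothing about its signal. Of 20 loci of monolignol synthesis and glycosylation 5 had a probe set named as their own and 3 were measured, 1 above 0 and 2 below, with a median of -0.16 and none past 1.5-fold. HCT, an acyltransferase of the pathway, was the highest with signals of 2384 and 2426, a log2 ratio of 0.03. UGT72E2, which glycosylates monolignols, was the lowest with 1117 and 908, a log2 ratio of -0.30. Of 16 loci for the perception of wall fragments and the response to them 2 had a probe set named as their own and 0 passed the filter. For the 7 loci of camalexin and indole defence metabolism no probe set was named.

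Some other measurements differed between the arrays alongside AT1G30700. Of the root markers all 3 that were measured had a log2 ratio above 0, with a median of 0.35. EXPA18, a root hair expansin, was at 0.62 (188 and 290), AT5G17820 at 0.35 (670 and 855) and PYK10, by far the brightest, at 0.05. EXPA18 passed the filter only through its OE-N6 signal. The fourth marker, EXPA7, a further root hair expansin, did not reach the filter and was at 0.34 (155 and 196). For control transcripts, the signal of the 3' probe set relative to the 5' or middle one, which reflects RNA quality, was higher in OE-N6 for 9 of 10 pairs, by between -0.20 and 0.39 on the log2 scale over all 10. The part of root tissue and of RNA quality in the ratios of the members was not tested.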

How the data were processed

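Per the submitters' processing notes, MAS5 was used; no version or setting is stated there. The deposited intensity values are linear, with a single value for every probe set on an array. With the highest and lowest 2% of probe sets left out, both arrays had a mean of 500.0, so the overall signal was set equal, and a shift common to most transcripts would not be seen. Probe sets were ordered by signal to set the floor and filter, to form the 10 groups and to pick the brightest probe sets of a gene. This order was not read as an order of transcript amounts between genes.

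Gene names came from the platform annotation, joined to the RefSeq table of TAIR10.1 through gene identifiers. Of 22746 non-control probe sets, 13513 are assigned to 1 gene and 503 to several, and the 8730 absent from the annotation stay unnamed. The array files state no genome build, so no coordinates are printed, and sequences were not used here. The unit was the probe set. A probe set of several genes counted once when all of them were on a list.

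All members with a probe set are named, with the overexpressed gene, genes between members and the 3 nearest probe sets on each side, the rest of the family, and the highest and lowest measured member of each other list. AT5G17820 and EXPA7 were named outside this rule, so that all root markers are shown, with their values already seen. Members and lists were chosen with earlier results of these data known. The counting procedure was tested on simulated data. Alternatives changed the scaling, floor, filter, threshold, summary and unit. Python 3.11.15, numpy 2.4.6, pandas 2.3.3, scipy 1.17.1, statsmodels 0.14.6 and matplotlib 3.10.9 were used.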

Additional observations from a re-analysis of the deposited data

How the results depend on the processing

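The log2 ratios of the 5 measured member probe sets stayed within 0.05 of the values given under median centring, quantile and loess scaling, a lower floor (25th percentile), no floor, and a pseudocount of 7.85 in place of the floor. AT1G30700 lay between 1.34 and 1.40. The same alternatives, added after the data were seen for 7 genes outside the clusters, kept each direction, with AT1G30750 between 0.73 and 0.79. Without the signal filter the median log2 ratio was 0.00 for chromosome 1 and 0.055 for both clusters, because the 4 members without a ratio then count as 0. With probe sets of 1 member only, the chromosome 1 median was that of AT1G30700 alone, 1.36. At the 75th percentile filter AT4G20830 was the 1 member left, chromosome 1 gave no value and 0 members were 1.5-fold higher. Over all probe sets past that filter, 104 of 5687 were at least 1.5-fold higher. At a log2 threshold of 0.32 and the main filter, 2 member probe sets were higher, as were 10.4% of all measured probe sets. Over all measured probe sets 284 were at least 1.5-fold higher, 292 lower, and 58 and 55 at least 2-fold; the stricter filter gave 104, 97, 16 and 18, and the brightest probe set of each named gene 142, 141, 32 and 29, both with fewer probe sets tested. No paired analysis was possible because there was a single array per genotype. Low signal leaves 4 of 9 member probe sets without a ratio.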
